A study of Homo sapiens with 16 samples.

Results

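The transcripts described here were seen by the array after immunoprecipitation (IP) of HuR from control cells and not after IP with IgG. A probe belonged to the set if its detection p was under 0.01 on all 4 HuR IPs with control siRNA and 0.05 or more on all 8 IgG IPs, and if the annotation gave it 1 gene symbol. The detection p, deposited with each value, compares a probe with the negative control probes of its own array. Symbols beginning with RPL, RPS or ZNF and a list of single named genes were left out by the rule. Of 47231 probes, 53 met it, and they named 52 genes of 20046 on the array, because spermine synthase (SMS) had 2 probes. The detection pattern alone was met by 88 probes, of which 13 are unnamed here and 22, of 20 genes, were left out by symbol. Of the 52 genes, 50 are protein coding, 1 is a long noncoding RNA (LINC01018) and 1 is a transcribed pseudogene (CHP1P2).

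HuR, encoded by ELAVL1, is an RNA-binding protein present in nearly all tissues that binds U-rich and AU-rich stretches, mostly in the untranslated tails of mRNAs. Binding is known to protect many of these mRNAs from decay or to change their translation, and cyclins, growth factors and cytoskeletal genes are among its described targets. In RNA immunoprecipitation, an antibody pulls down the protein with the RNA bound to it, and an IgG that recognises no cellular protein shows what the beads bring down alone.

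All samples came from U2OS, an established osteosarcoma cell line of human origin. The cells had been synchronized in their division cycle, though the labels state no phase for any sample. MIR100HG, a long noncoding RNA, was targeted by siRNA for 48 hours in 8 of the samples and a control siRNA was used in the other 8, and lysates were incubated with HuR antibody or IgG on protein A beads. The 4 combinations of antibody and siRNA had 4 biological replicates each, per the series' design text, with 1 array per replicate. The treatment protocol spells the siRNA target mIR-110HG exon 4, while the titles name miR-100HG. The question named by the series title is whether MIR100HG changes how HuR interacts with its target mRNAs. RNA was amplified from an oligo-dT primer, so the arrays read polyadenylated RNA. Input RNA was not analysed here, so fewer cells, less message per cell and less RNA bound to HuR cannot be told apart as the source of a lower level in an IP.

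Signal was low on every array. The median intensity per array lay between 42 and 50, and 553 to 2592 probes were detected at p under 0.01. One array stood apart. In the group with HuR antibody and MIR100HG siRNA, replicate 2 had 2592 detected probes and a highest intensity of 6370, while replicates 1, 3 and 4 detected 563, 824 and 761 probes and reached 327, 314 and 334. The HuR IPs with control siRNA reached 770 to 1420. The counts of called members and the median differences below that rest on replicate 2 are therefore given with and without it. IPs were numbered group by group, so any effect of the order of handling cannot be told apart from antibody and siRNA. Neither the siRNA target nor the antibody target could be checked: MIR100HG (probe ILMN_3244176) and ELAVL1 (probe ILMN_1764873) were detected at p under 0.05 on 0 of 16 arrays, with intensities of 40 to 54 and 40 to 49. Of 10 mesenchymal and osteoblast marker genes only CD44 was detected on all 4 HuR IPs with control siRNA. None of 5 epithelial, 5 blood and 4 neural markers was. The sum of the mesenchymal markers was 506 to 562 in those HuR IPs and 479 to 506 in the IgG IPs with the same siRNA.

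Genes that act on RNA itself made up 6 of the 52. ALKBH5 (probe ILMN_1657283), a demethylase that removes methyl groups from adenosines in mRNA, had intensities of 141, 172, 159 and 99 in HuR IPs with control siRNA and of 79, 833, 68 and 46 in those with MIR100HG siRNA. Over the 8 IgG IPs its intensity was between 43 and 48, with a median of 46. All 4 control-siRNA values lay above every IgG value, and so did 3 of the 4 values with MIR100HG siRNA, replicate 4 being at the IgG level. WTAP, a subunit of the complex that writes the same methyl mark, had 74, 92, 73 and 61 with control siRNA and 50, 237, 51 and 43 with MIR100HG siRNA, against 41 to 46 in IgG IPs (median 44). PCBP2, which binds C-rich stretches of RNA, had 93, 147, 189 and 90 with control siRNA, 57, 437, 57 and 42 with MIR100HG siRNA, and 39 to 52 in IgG IPs (median 44). PABPN1, the nuclear poly(A)-binding protein, had 74, 77, 79 and 64 with control siRNA, 58, 356, 55 and 51 with MIR100HG siRNA, and 42 to 49 in IgG IPs (median 44.5). The translation factor EIF4G2 and the splicing-factor kinase UHMK1 completed the group. In all 6 of them replicate 2 was the highest of the HuR IPs with MIR100HG siRNA, at 109 to 833, and the other 3 arrays of that group lay between 42 and 79.

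Another 6 genes belong to the actin and tubulin cytoskeleton. CNN3, which encodes the actin-binding calponin 3, had 97, 128, 103 and 73 in HuR IPs with control siRNA, 64, 368, 62 and 52 with MIR100HG siRNA, and 41 to 48 in IgG IPs (median 45.5). DPYSL2, which binds tubulin and guides axon growth, had 89, 116, 118 and 70, then 56, 271, 55 and 52, against 39 to 48 in IgG IPs (median 45.5). MTPN, encoding the actin-capping regulator myotrophin, had 79, 99, 89 and 57, then 60, 350, 62 and 50, against 41 to 53 (median 45.5). In all 3 genes replicate 4 was the lowest array of both HuR groups. CAPZA2, a subunit of the actin capping protein, had 64, 98, 78 and 63 with control siRNA and 58, 180, 50 and 50 with MIR100HG siRNA. EZR, which ties actin to the plasma membrane, had 60, 70, 73 and 63, then 54, 199, 55 and 42. ACTB, which encodes beta-actin and is among the described HuR targets, was the exception among the 53 probes: its member probe (ILMN_1777296) had 64, 75, 96 and 58 with control siRNA and 50, 54, 47 and 51 with MIR100HG siRNA, against 38 to 49 in IgG IPs (median 43). It was the single member that was detected at p under 0.05 on none of the 4 HuR IPs with MIR100HG siRNA, replicate 2 included.

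Proteins of the cell surface or the outside of the cell were encoded by 7 genes. DCBLD2 (probe ILMN_2174127), a membrane protein with a discoidin domain, had 137, 207, 155 and 94 in HuR IPs with control siRNA, 59, 520, 60 and 52 with MIR100HG siRNA, and 38 to 47 in IgG IPs (median 44.5). AXL (probe ILMN_2364521), a receptor tyrosine kinase activated by the ligand GAS6, had 112, 153, 138 and 94, then 54, 416, 56 and 48, against 42 to 51 (median 45.5). In both, the 4 control-siRNA values were higher than those of replicates 1, 3 and 4 with MIR100HG siRNA and lower than that of replicate 2. SERPINE2, a secreted inhibitor of thrombin and urokinase, had 86, 115, 119 and 72 with control siRNA, 60, 393, 63 and 50 with MIR100HG siRNA, and 42 to 51 in IgG IPs (median 43.5). ATP1B1, the beta subunit of the sodium and potassium pump, had 62, 71, 87 and 67, then 52, 78, 46 and 43, against 38 to 47 (median 42). ATP1B1 and ACTB were the members in which replicate 2 did not exceed all 4 control-siRNA values. The phosphate exporter XPR1, the caveolar coat protein CAVIN1 and the tetraspanin CD81 lay between 57 and 85 with control siRNA and at 256, 164 and 138 on replicate 2.

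The signalling genes were CRKL, SPRED1, ARPP19, DAPP1 and PDE4C. CRKL (probe ILMN_1690122), an adaptor that links receptor kinases to Ras-family pathways, had 115, 150, 141 and 87 in HuR IPs with control siRNA and 65, 541, 67 and 55 with MIR100HG siRNA, against 42 to 52 in IgG IPs (median 48.5). CRKL stayed above its highest IgG value on all 8 HuR arrays in intensities not normalized between arrays. On replicate 4 with MIR100HG siRNA its 55 had a detection p of 0.06364, so it was not detected there. SPRED1, an inhibitor of the Ras and MAP kinase pathway, had 60, 82, 77 and 61, then 55, 271, 50 and 50, against 39 to 46 (median 43.5). ARPP19, an inhibitor of protein phosphatase in mitosis, had 61, 79, 67 and 57, then 60, 217, 55 and 48, against 44 to 54 (median 46.5). The phosphodiesterase PDE4C and the lipid-binding adaptor DAPP1 reached 312 and 236 on replicate 2, and each had at most 55 on the other arrays of that group.

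Internal membranes, protein folding and traffic accounted for 9 genes. ZMPSTE24, the protease that matures prelamin A, had 92, 118, 113 and 64 in HuR IPs with control siRNA, 58, 287, 46 and 52 with MIR100HG siRNA, and 40 to 46 in IgG IPs (median 43.5). TMX1, a thioredoxin-like protein of the endoplasmic reticulum, had 87, 94, 100 and 68, then 47, 236, 52 and 39, against 38 to 49 (median 43). DNAJA2, a chaperone of the DnaJ family, had 75, 104, 106 and 68, then 50, 283, 54 and 47, against 45 to 51 (median 48). ERAP2, which trims peptides for display on MHC class I, had 90, 94, 91 and 67, then 50, 156, 54 and 46, against 42 to 54 (median 48). The remaining 5 were the sterol-regulated protein TMEM97, the cyclophilin PPID, the galactosyltransferase B4GALT5, cytochrome b5 of the outer mitochondrial membrane (CYB5B) and taxilin alpha (TXLNA). None of the 9 was detected at p under 0.01 with MIR100HG siRNA on any array other than replicate 2, where their intensities were 119 to 287.

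The nucleus was represented by 8 genes with varied roles. HCFC1, a coregulator that recruits chromatin-modifying enzymes to promoters, had 87, 94, 109 and 70 in HuR IPs with control siRNA, 57, 431, 49 and 41 with MIR100HG siRNA, and 38 to 43 in IgG IPs (median 41). ZFP91, a zinc finger protein with ubiquitin ligase activity, had 91, 113, 95 and 73, then 51, 360, 58 and 53, against 42 to 53 (median 47.5). CEBPB, a transcription factor of the C/EBP family, had 64, 75, 64 and 57, then 60, 303, 53 and 48, against 41 to 50 (median 46). The forkhead factor FOXN3, the small modifier SUMO2, the mitotic regulator RCC2, the nuclear pore component SEH1L and the primase subunit PRIM2 lay between 57 and 92 with control siRNA. All 8 were detected on replicate 2 at p under 0.01 and on none of the other 3 arrays with MIR100HG siRNA.

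In metabolism, the 2 probes of SMS, which converts spermidine to spermine, were high on the same arrays. Probe ILMN_1694305 had 72, 112, 112 and 67 in HuR IPs with control siRNA and 49, 134, 56 and 50 with MIR100HG siRNA, against 40 to 49 in IgG IPs (median 43.5). Probe ILMN_2225318 had 71, 100, 96 and 61, then 48, 106, 52 and 50, against 41 to 51 (median 44.5). The kynurenine-pathway enzyme AFMID and the mitochondrial NAD carrier SLC25A51 reached 106 and 180 on replicate 2. The last 8 genes fall in none of these roles. CHP1P2, a pseudogene of a calcineurin-like protein gene, had 96, 116, 104 and 82 with control siRNA, 50, 485, 54 and 44 with MIR100HG siRNA, and 40 to 50 in IgG IPs (median 44). LINC01018 had 60, 63, 61 and 59, then 53, 102, 53 and 53, against 35 to 53 (median 47.5). C5orf15, DCAKD, GSDMA, KLLN, PRXL2A and TP53TG3 lay between 58 and 103 with control siRNA. CHP1P2, TP53TG3 and ACTB have close copies elsewhere in the genome, and whether their probes tell the copies apart was not tested.

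**Figure D1:**
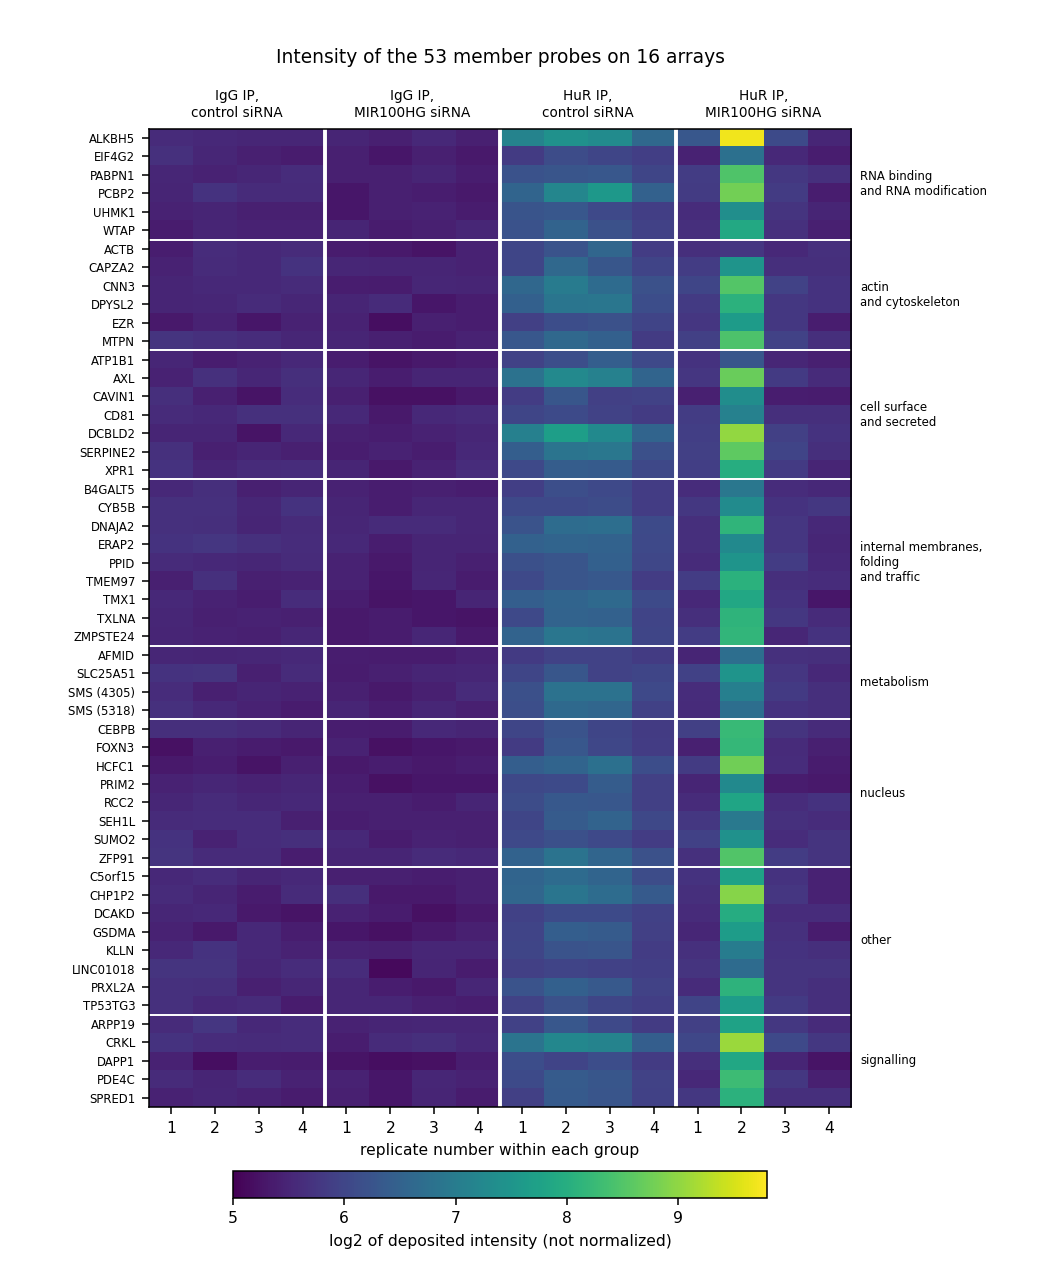
Intensity (log2 colour scale, deposited values before normalization) of the 53 probes in rows, grouped by role, on the 16 arrays in columns. The HuR IPs with control siRNA stand above all IgG IPs in every row, and among the HuR IPs with MIR100HG siRNA replicate 2 is bright in all rows but ACTB, with ATP1B1 close to its control level.

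The contrast that chose the probes is given as a description. The lowest value in HuR IPs with control siRNA exceeded the highest IgG value in all 53 probes, as it did in 63.5% of the 414 probes detected on all 4 of those arrays. Because no member was above background in any IgG IP, the excess over IgG has only a lower bound. The bound set the normalized mean of the HuR IPs against, on each IgG array, the lowest signal of any detected probe or the probe's own value, whichever was higher. It ran from at least 1.03-fold to at least 3.27-fold, with a median of 1.46. These bounds hold on this normalized scale: the median was 1.27 to 1.49 with single arrays left out and 1.16 to 1.72 over the 20 alternatives run for it. DCBLD2 was at least 3.27-fold higher with HuR than with IgG, ALKBH5 at least 3.21-fold and PCBP2 at least 2.79-fold. AXL and CRKL were each at least 2.77-fold higher, followed by CHP1P2 at 2.15, CNN3 at 2.15, DPYSL2 at 2.07, SERPINE2 at 2.07 and ZMPSTE24 at 1.98. Within the 4 HuR IPs with control siRNA, replicate 2 was strictly the highest for 33 of the 53 probes and replicate 3 for 16. Replicate 4 was strictly the lowest for 43. Over all probes these arrays detected 1186, 1212, 1407 and 752 at p under 0.01, the fewest again on replicate 4. Whether the order is particular to the set was not tested. The median intensity over the 53 probes was 68, 83, 83 and 62 on replicates 1 to 4, against 41 to 47 on the IgG arrays.

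Both thresholds cut through a continuous range. The members nearest to the HuR threshold were CEBPB, ARPP19 and AFMID, whose highest detection p with control siRNA was 0.00909. SDC4, VMA21 and STARD7, at 0.01039, missed it, together with 3 others at the same value. On the IgG side CRKL and DNAJA2 had a lowest detection p of 0.05195 and DPYSL2 of 0.05584, while RBM15 and TRAM1 at 0.04545 and COX16 at 0.04286 fell outside. The intensities on both sides of each threshold overlapped: SDC4 had 57 to 90 in HuR IPs with control siRNA and CEBPB 57 to 75.

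Each of the 12 arrays of the rule was also held back from the choice in turn. When the rule was applied with 1 HuR array of the control siRNA held back and the chosen probes were looked up on the array left out, 96.4% of 55 were detected on replicate 1, 98.1% of 54 on replicate 2 and 100% of 53 on replicate 3. Replicate 4 detected 44.2% of the 120 probes chosen without it. Over all probes, these 4 arrays detected 2.51%, 2.57%, 2.98% and 1.59%. The set would thus hold 120 probes without that array, the dimmest of the 4 for 43 members. Leaving out an IgG array in the same way gave 53 to 62 probes, of which 85.5% to 100% were undetected on the array left out, against 92.3% to 94.6% of all probes. The same thresholds with the antibodies exchanged returned 0 of 225 probes detected on all 4 IgG IPs with control siRNA and 0 of 91 with MIR100HG siRNA. With HuR and MIR100HG siRNA they returned 1 of 162 probes (0.617%), JUND, against 88 of 414 (21.3%) with HuR and control siRNA.

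**Figure D2:**
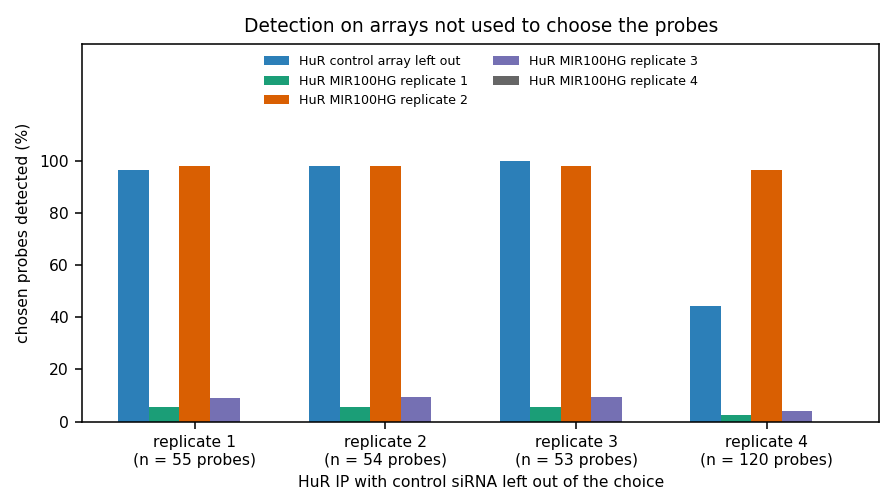
Percent of probes detected at p under 0.01 (vertical axis) when 1 HuR IP with control siRNA was left out of the choice (horizontal axis, with the number of probes then chosen), on the array left out and on the 4 HuR IPs with MIR100HG siRNA. Between 96.4% and 100% were detected on replicates 1 to 3 left out, 44.2% on replicate 4, and among MIR100HG arrays only replicate 2 detected more than 10% of them.

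The 4 HuR IPs with MIR100HG siRNA are the arrays that the rule did not use, and they differed widely among themselves. Replicates 1 to 4 detected 3, 52, 5 and 0 of the 53 probes at p under 0.01, which is 5.66%, 98.1%, 9.43% and 0%, where all probes gave 1.19%, 5.49%, 1.74% and 1.61%. At p under 0.05 the counts were 17, 52, 9 and 0, against 7.23%, 12.4%, 6.8% and 6.59% of all probes. No member was detected on all 4 arrays at either threshold. ALKBH5, CNN3 and CRKL were detected on 3 arrays at p under 0.01, MTPN and SERPINE2 on 2, 47 probes on 1 and ACTB on 0. The mean number detected per array was 15, and 2.67 without replicate 2. The median intensity over the 53 probes was 52, 236, 53 and 48. The lowest intensity that reached a detection p under 0.01 was 60 to 63 on these 4 arrays and 51 to 58 on the other 12, so an equal intensity could be detected in one group and not in another. The part of this in the counts was not tested.

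**Figure D3:**
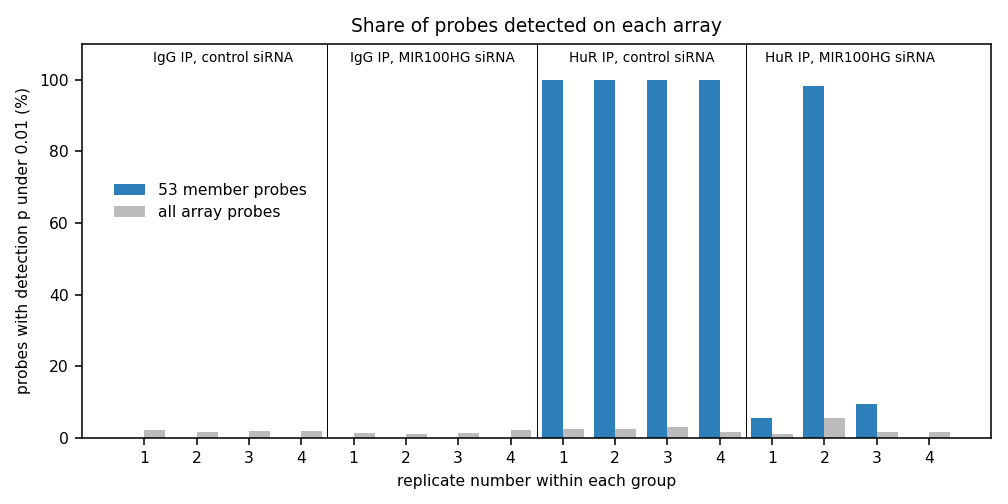
Percent of the 53 probes (blue) and of all 47231 probes (grey) with a detection p under 0.01 on each array. The values for the HuR IPs with control siRNA and for the IgG IPs were set by the rule. Among the HuR IPs with MIR100HG siRNA, 5.66%, 98.1%, 9.43% and 0% of the 53 were detected on replicates 1 to 4.

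In intensity, replicate 2 exceeded all 4 control-siRNA values in 51 of 53 probes (55.8% of all probes did so), and its ratio to the control-siRNA mean had a median of 3.10 and ran from 0.737 for ACTB to 5.84. Replicates 1, 3 and 4 were all below the lowest control-siRNA value in 46 of 53 probes (1.18% of all probes), with median ratios of 0.667, 0.691 and 0.617. The rule asked for high values with control siRNA, so a lower value on another array is favoured by the choice. The 322 other probes detected on all 4 HuR IPs with control siRNA gave median ratios of 0.671, 2.32, 0.673 and 0.607 on the same arrays. The 39 probes detected with both antibodies on all 12 arrays, and so chosen for signal with IgG, gave medians of 1.07, 1.14, 1.04 and 1.02. Their ratios spread more widely, from 0.231 to 1.34, 0.975 to 6.12, 0.239 to 1.34 and 0.114 to 1.24 on replicates 1 to 4. At least 84.6% of the 39 stayed detected on each HuR IP with MIR100HG siRNA. Against the 8 IgG IPs, 33 of the 53 probes exceeded their highest IgG value on replicate 1 (47.7% of all probes), 38 on replicate 3 (33.7%) and 15 on replicate 4 (26.7%). The share of members on replicate 4 was thus near that of all probes. These intensities were not normalized, and the array medians were 50, 48 and 48 here against 42 to 47 on the IgG arrays. The part of that shift in the counts was not tested. Across the 53 probes, log2 intensity on replicate 2 followed the mean of the HuR IPs with control siRNA with a Pearson r of 0.68. It did so with 0.434 on replicate 1, 0.613 on replicate 3 and 0.114 on replicate 4, while each control-siRNA array followed the other 3 with 0.902 to 0.937. These are correlations across probes, which share their arrays, and are given as a description.

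**Figure D4:**
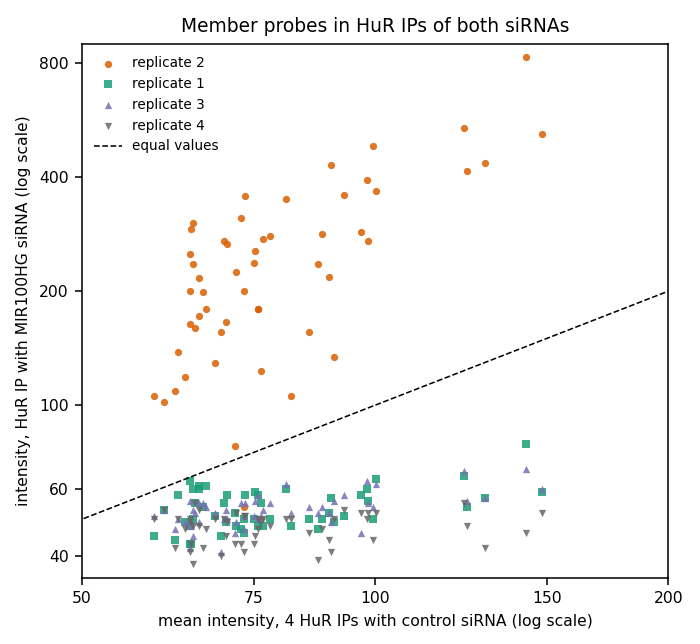
Intensity of each of the 53 probes on the 4 HuR IPs with MIR100HG siRNA (vertical axis, log scale) against its mean over the 4 HuR IPs with control siRNA (horizontal axis, log scale), with a dashed line at equal values. Replicate 2 lies above the line for 52 probes and replicates 1, 3 and 4 lie below it for all 53.

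With MIR100HG siRNA, 2 of the 53 probes, those of ALKBH5 and CRKL, were called higher with HuR than with IgG. That is 3.77%, close to the 3.06% of all 1438 probes tested, and both calls were lost when any one of replicates 1, 2 and 3 of the HuR IPs was removed. The IgG values here had to be undetected by the rule, and the probes passed the filter through the control-siRNA arrays, so nothing is read from the calls. In limma on normalized log2 intensities ALKBH5 was higher by 1.65 ± 0.39 (SE, limma adjusted p = 0.0200) and CRKL by 1.06 ± 0.28 (limma adjusted p = 0.0407). In intensities not normalized between arrays, ALKBH5 was above its highest IgG value on 3 of 4 arrays and CRKL on 4 of 4. On replicate 4 CRKL was not detected (detection p of 0.06364). At an unadjusted p under 0.05 there were 9 members. The log2 differences of the 53 ran from 0.09 to 1.65 with a median of 0.39, against 0.08 over all probes tested. Without replicate 2 ALKBH5 was higher by 0.96 (limma adjusted p = 0.0714) and CRKL by 0.52 (limma adjusted p = 0.0655), and the median of the 53 was 0.08. Over 27 alternatives, all but the deposited scores, the limma adjusted p ran from 7.63e-07 to 0.397 for ALKBH5 and from 0.000568 to 0.475 for CRKL. With the deposited scores neither was called. Removing replicate 1 or 3 also gave 0 called members and removing replicate 4 gave 5. Removing IgG arrays of the same siRNA gave 1 for replicates 1, 2 and 3 and 0 for replicate 4, and removing any one control-siRNA array gave 1. With each IgG value raised to at least the lowest detected signal of its array, 7 members had a higher mean with HuR. The ratio was 2.15-fold for ALKBH5, 1.52-fold for CRKL, and 1.17, 1.13, 1.12, 1.08 and 1.00-fold for CNN3, DCBLD2, SERPINE2, MTPN and PCBP2. Each HuR mean includes arrays on which the member was not detected, so these ratios are not strict lower bounds. Without replicate 2 the HuR mean stayed higher for 2 of them, at 1.43-fold for ALKBH5 and 1.12-fold for CRKL. Without replicate 1, 3 or 4 it was higher for 13, 17 and 19 members. Leaving out arrays for these ratios was an alternative added after the data were seen. The p-values reflect the spread between these 16 samples only.

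Between the siRNAs, within HuR IPs, the quantile-normalized set was lower with MIR100HG siRNA by a median log2 difference of -0.68. Without replicate 2 the median was -0.69. Under median centring it was -0.33 with replicate 2 and -1.08 without it, and with no scaling between arrays -0.30 and -1.05. On the quantile-normalized scale, 24 of 53 probes were called lower by limma (45.3%, where 9.87% of the 1438 probes were). This comparison shares its control-siRNA arrays with the rule, and all 53 probes passed the filter through those arrays, so nothing is read from the count. DCBLD2 differed by -1.46 ± 0.32 (SE), AXL by -1.42 ± 0.29, the probes of SMS by -1.10 ± 0.18 and -0.96 ± 0.16, and ACTB by -0.89 ± 0.14. Before normalization, mean intensity with control and MIR100HG siRNA was 148.25 and 172.75 for DCBLD2 and 124.25 and 143.5 for AXL. Replicate 2 alone was at 520 and 416 there. The means were 90.75 and 72.25, and 82 and 64, for the SMS probes, and 73.25 and 50.5 for the ACTB member probe. The ACTB member probe, undetected on every MIR100HG array, has only a bound here: its control-siRNA level, which the rule required to be high, was at least 1.34 times that with MIR100HG siRNA. The 2 other ACTB probes had mean intensities of 612 and 872 with control siRNA and of 780 and 1202 with MIR100HG siRNA, where replicate 2 alone was at 2756 and 4382. The count turned on single arrays. Among HuR IPs with MIR100HG siRNA, removing replicate 2 gave 52 (413 of 1438 probes overall), and removing replicate 1, 3 or 4 gave 12 each time. Among HuR IPs with control siRNA, removing replicate 1, 2 or 3 gave 12, 13 and 12.

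The difference of the HuR enrichment between the siRNAs, the interaction of antibody and siRNA, was negative in all 53 probes with a median log2 value of -0.66, and limma called 0 of them (0.209% of the 1438 probes were called lower). At an unadjusted p under 0.05 there were 28. With replicate 2 of HuR and MIR100HG siRNA left out 45 members were called, among 199 of 1438 probes, and with replicate 4 of HuR and control siRNA left out 1 was. The median log2 value without replicate 2 of HuR and MIR100HG siRNA was -0.67 on the quantile-normalized scale. Under median centring it was -0.33 with that array and -1.04 without it. With no scaling between arrays it was -0.29 and -1.01, so its size depended on both the scaling and that array. The rule used 3 of the 4 groups in this comparison. In HuR minus IgG with control siRNA, the contrast of the rule itself, all 53 were called higher, beside 22.3% of the 1438 probes, with log2 differences of 0.53 to 2.25.

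Other probes of the same genes were read on the same arrays, and the rule decided which probes were left over as other. A left-over probe detected on all 4 HuR IPs with control siRNA had to be detected at p under 0.05 on an IgG IP. It would otherwise be a member, so the counts are a description. Of the 52 genes, 29 had another probe on the array, 41 in all. On all 4 HuR IPs with control siRNA 8 of the 41 were detected (19.5%, where 0.877% of all probes were), and 29 were detected on none of them. The 8 belonged to ACTB, AXL, DCBLD2, EIF4G2, EZR, PCBP2 and PPID. For AXL the other probe (ILMN_1701877) had 139, 163, 197 and 112 with control siRNA and 46 to 56 in IgG IPs. For PCBP2 probe ILMN_2312296 had 199, 311, 397 and 186, and 2 further probes stayed between 42 and 51. None of 5 other WTAP probes was detected at p under 0.01 on a HuR IP with control siRNA. Why probes of a gene differed was not tested.

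The wording "never with IgG" holds for the 53 probes and not for every transcript of their genes. ACTB probe ILMN_2038777 was detected at p under 0.01 on 4 of 4 IgG IPs with control siRNA and on 3 of 4 with MIR100HG siRNA, with 52 to 87 there. On the HuR IPs it had 441, 709, 960 and 337 with control siRNA and 156, 2756, 139 and 69 with MIR100HG siRNA. ACTB probe ILMN_2152131 had 621, 992, 1420 and 456, then 180, 4382, 184 and 61, and was detected on 2 of 4 IgG IPs with control siRNA. On replicate 2 both other probes were thus at their brightest, where the member probe had 54. In all, 7 of the 41 other probes were detected on at least 1 IgG IP at p under 0.01 and 0 on all 8. At p under 0.05, the threshold of the rule, 16 were detected on at least 1 and 1, ACTB probe ILMN_2038777, on all 8. The 16 include the 8 probes detected on all 4 HuR IPs with control siRNA, for which the rule fixed this outcome.

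**Figure D5:**
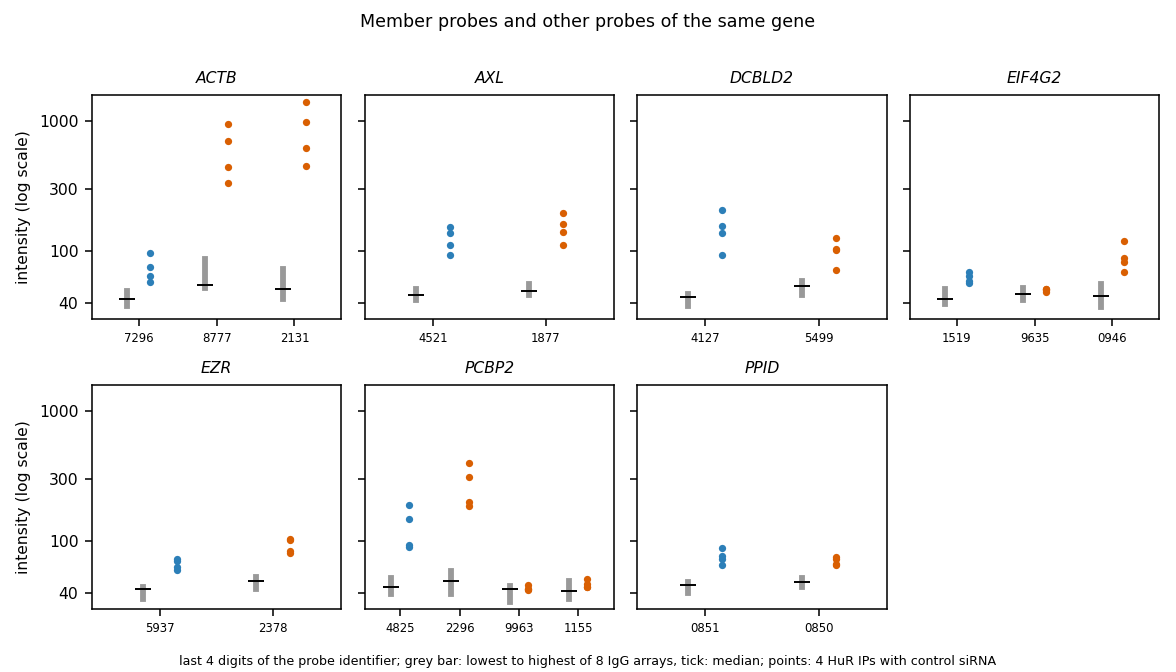
Intensity (log scale) of the probes of 7 member genes, named by the last digits of their identifiers, with member probes in blue and other probes of the gene in orange. Points are the 4 HuR IPs with control siRNA, grey bars run from the lowest to the highest of the 8 IgG IPs, and the tick is their median; the other probes of ACTB reach 337 to 1420 while its member probe stays at 58 to 96.

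Lists of genes made from symbols, mostly from their first letters, were counted beside the roles above; they leave out many genes of each function and hold some that lack it. Over all 20046 genes, 238 (1.19%) had a probe detected on all 4 HuR IPs with control siRNA. Of 35 described HuR targets on the array 2 had one (5.71%), ACTB and CASP2, and of these ACTB was a member. Among 115 genes with symbols of RNA-binding families 5 had one (4.35%), and 1 of the 115, PABPN1, was a member. Among 106 genes with symbols of cytoskeletal families 5 had one (4.72%), and 2 were members, ACTB and CAPZA2; CNN3, DPYSL2, EZR and MTPN are outside that list. Of 444 membrane carriers 6 had one (1.35%), with ATP1B1 and SLC25A51 as members, and of 230 genes with symbols of the ubiquitin system and proteasome 3 did (1.3%), with SUMO2. TMEM97 was the member among 413 genes with TMEM or FAM symbols, of which 4 had one (0.969%). The lists for nuclear transport (3 of 62 genes), vesicle trafficking (1 of 286), chromatin (1 of 124), phosphatases (2 of 144), kinases (5 of 127), mitochondrial genes (2 of 210), 14-3-3 proteins (1 of 9) and small GTPases (0 of 59) contained no member. For nuclear transport, vesicle trafficking, kinases and 14-3-3 proteins this was set by the rule. KPNA4, TMED2, CSNK1E and YWHAZ met the detection pattern and were left out by symbol. CASP2, UBE2C and SRSF6, of the HuR target, ubiquitin and RNA-binding lists, were left out in the same way. The symbols of AXL, UHMK1 and CYB5B are not among those of the kinase or mitochondrial lists. With so few genes in each count, nothing particular to a list is read from these shares.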

How the data were processed

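Intensity was deposited per probe as a linear bead value without normalization between arrays. The submitters' processing notes name GenomeStudio 2011.1. A deposited detection p-value stands beside each intensity, per the file headers, in steps of 1/769. The authors' deposited score per probe follows the log2 intensity on 15 of 16 arrays; 1 column did not (r = 0.0066 across probes) and was not used. Of 47231 probes 30113 had 1 gene, 8 several, and 17110 are unnamed here; symbols of 30074 were updated by gene identifier and 39 kept. Members, lists and roles were chosen with earlier results of these data known; the roles were assigned after the members were seen.

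Intensities were background corrected and quantile normalized (neqc, offset 16) in limma 3.58.1 (R 4.3.3), and 1438 probes (3.04%) with a detection p under 0.01 on 4 or more of the 16 arrays were tested with 4 group means, at a Benjamini-Hochberg adjusted p under 0.05. Genes were named by role, by the size of their bound, by detection with MIR100HG siRNA, by nearness to a threshold and by having other probes. Replicates shared 8.25% to 11.0% identical intensities, so none was treated as a duplicate. Alternatives covered scaling, background, filter, weights, trend, a replicate block, the thresholds and each array left out. No slide is named in those sources. Arrays are limited in precision by their number. No sequence is shown. Figures were drawn with matplotlib 3.10.9.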

Additional observations from a re-analysis of the deposited data

Results flagged for a closer look

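A sample stood far from the other 3 of its group where its gap to the nearest of them, divided by the range of the group, exceeded Dixon's limit for 4 values, which chance passes in about 1 in 20 groups of 4. In HuR IPs with MIR100HG siRNA 51 of 53 member probes did so (96.2%), in each case through replicate 2, which was the highest; the 2 that did not were ACTB and ATP1B1. The number of members detected per array stood apart in the same way, at 0.904. The ratios nearest to the limit were 0.895 for SLC25A51, 0.902 for AFMID and SUMO2, 0.909 for CD81, 0.913 for TP53TG3, 0.917 for EZR and PPID, 0.918 for SMS (probe ILMN_1694305) and 0.919 for SEH1L. Ratios in the middle of the range were 0.925 for EIF4G2, 0.927 for ERAP2, 0.929 for ARPP19, 0.931 for SMS (probe ILMN_2225318), 0.934 for TMX1, UHMK1 and XPR1, 0.937 for GSDMA, 0.938 for CAPZA2 and 0.939 for DAPP1. Higher ratios were 0.95 for ZMPSTE24, 0.953 for CEBPB, 0.954 for C5orf15, 0.955 for PDE4C, 0.957 for PRIM2, 0.958 for ALKBH5, 0.959 for HCFC1, TMEM97 and WTAP, 0.96 for MTPN and 0.962 for CNN3, PCBP2 and SERPINE2. The gap filled nearly the whole range for the others, with 0.97 for DNAJA2 and TXLNA, 0.972 for B4GALT5 and CYB5B, 0.975 for CRKL and KLLN, 0.977 for CHP1P2, PABPN1, RCC2, SPRED1 and ZFP91, 0.978 for AXL and PRXL2A, 0.98 for FOXN3, 0.982 for DPYSL2, 0.983 for DCBLD2, 0.984 for CAVIN1, 0.995 for DCAKD and 1.0 for LINC01018. These 51 are 1 array seen through many probes, not separate results, and what set that array apart was not tested.

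In the other groups few members stood apart, close to the number chance gives. In IgG IPs with control siRNA there were 3, CYB5B and SEH1L at 0.833 and TMEM97 at 0.875. In IgG IPs with MIR100HG siRNA there were 4, ZMPSTE24 at 0.833, CD81 at 0.875, and C5orf15 and SEH1L at 1.0. All of these intensities lay at background. In HuR IPs with control siRNA ERAP2, at 0.852, had replicate 4 below the rest, and SLC25A51, at 0.875, had replicate 2 above the rest.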

How the results depend on the processing

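The 53 probes became 107 with a detection p under 0.05 on the HuR IPs with control siRNA, 27 with a p under 0.001, and 93 with a p of 0.01 or more on the IgG IPs; leaving out single arrays gave 53 to 120. The mean number of members detected per HuR IP with MIR100HG siRNA was 2.67 to 20 with single arrays left out, against 15. For HuR minus IgG with control siRNA, 53 called members became 2 with median centring, 2 with no scaling between arrays, 34 with the deposited scores and 27 with no filter on dim probes, and 50 to 53 with single arrays left out. Under median centring and no scaling the median log2 difference was 1.12 and 1.14, against 1.00, and both gave 53 called members once MIR100HG-siRNA HuR array 2 was left out. For HuR minus IgG with MIR100HG siRNA, 2 became 0 under each of these 4 settings, 1 with an intensity trend, and 0 to 5 with single arrays left out; without replicate 2 of the HuR IPs it was 0 under median centring and 0 with no scaling. For the siRNA difference within HuR IPs, 24 became 1 with median centring, 1 with no scaling, 5 with the scores, 6 with no filter, 52 with array weights, and 12 to 52 with single arrays left out; without replicate 2 it was 53 under median centring and 53 with no scaling. For the interaction, 0 became 4 with quantile normalization within each IP type, 4 with an intensity trend, 41 with array weights, and 0 to 45 with single arrays left out; without replicate 2 it was 53 under median centring and 52 with no scaling. The cause of these changes was not tested. No result changed sign. Median centring and no scaling moved the median of all probes tested to 0.23 and 0.28 in HuR minus IgG with MIR100HG siRNA, and no scaling to 0.12 in the interaction; the medians of the members were then 0.87, 0.92 and -0.29. The titles do not state whether equal replicate numbers mark paired samples. As deviations from their group means, same-numbered arrays correlated at -0.157 to 0.269 (mean 0.0117), and differently numbered ones at -0.385 to 0.352 (mean -0.00552). In the IgG IPs with MIR100HG siRNA the replicate numbers do not follow the order of the IP numbers, unlike in the other groups. Pairing by IP order was not tested, so these correlations cannot decide whether samples were paired. With the replicate block 53, 2, 22 and 0 members were called in the 4 comparisons. Most member intensities lie near the detection limit of their array, which leaves bounds, not fold changes, against IgG.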
